A study of Mus musculus with 12 samples.

Results

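Which haematopoietic growth factors a fibroblast line transcribes was described here from 6 genes, taken by symbol: Csf1, Csf2, Csf3, Il34, Kitl and Flt3l. All 6 had a row among the 27179 gene IDs of the count tables. The cells were NIH3T3, an immortalized line of mouse embryonic fibroblasts, labelled as RelA-/- and carrying RelA-DsRed, a fusion of the NF-κB subunit RelA to a red fluorescent protein. All groups shared this background. The sources used here do not give what drives the fusion or whether the line is a clone. The labels name 4 groups of 3 samples, held in microfluidic devices for 2 h with IL-1b or PAM at 0.2 ng/mL each, with LPS at 100 ng/mL, or with media. The purpose stated was a comparison of the 3 stimuli. However, the 9 tables deposited for LPS, PAM and media were the same file as that of IL-1 replicate 3, so only the 3 IL-1 libraries were used. Every value below is a level in cells labelled as treated with IL-1b and says nothing on whether the stimulus raised or lowered a gene.

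Colony-stimulating factors are secreted proteins named for the blood cell colonies they support in culture. CSF1 (M-CSF) and IL-34 are the ligands of the receptor CSF1R and maintain macrophages, microglia and osteoclast precursors. CSF2 (GM-CSF) acts on granulocytes and macrophages, and CSF3 (G-CSF) on neutrophils. KITL (stem cell factor) binds KIT on haematopoietic stem cells, mast cells, melanocytes and germ cells, and FLT3L binds FLT3 on early progenitors and dendritic cell precursors. Fibroblasts and other stromal cells are known sources of several of these ligands, while the receptors are borne mainly by the responding blood cells.

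The libraries held 17254518, 18091073 and 18578859 counts for replicates 1, 2 and 3. Levels are given as CPM, counts per 1000000 counts of the library, with mean ± SD over the 3 libraries. No label says that these were separate cultures, and the spread may therefore be technical. Detected means at least 1 CPM in every library. For a count of 0 a limit of 3 counts was set, which is 0.161 to 0.174 CPM; the upper ends of the exact intervals for 0 lie somewhat higher, at 0.199 to 0.214 CPM. Such limits and the 95% exact Poisson intervals cover counting error only. The coefficient of variation beyond counting error, fitted as 1 value for 11784 genes that passed edgeR's expression filter, was 0.0908 (edgeR's common dispersion). It was 0.0677, 0.0907 and 0.108 without replicates 1, 2 and 3. Of 14 fibroblast markers, 13 were detected, with a summed level of 10804 to 11017 CPM, and Lum was the exception at 0.616 ± 0.528 CPM. None of the 6 mast cell markers was detected, and of 6 T cell markers only Lck was, at 3.15 ± 0.641 CPM, with Cd3e, Cd3d, Cd3g and Cd2 at 0 counts. Of 6 endothelial markers only Egfl7 was detected, at 13.8 ± 0.649 CPM, and none of the 6 epithelial markers was. Beside these counts, 51.1% of all protein-coding genes were detected.

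Of the 6 growth factor genes, Csf1, Kitl, Il34 and Flt3l were detected, and Csf2 and Csf3 were not. The share of all protein-coding genes detected was 51.1%, and that of all gene IDs 41.3%, so 4 of 6 is not read as more than the background. Csf1 stood highest, and Csf2 and Csf3 had at most 6 reads in a library. Together the 6 genes took 843, 662 and 777 CPM in replicates 1, 2 and 3.

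**Figure D1:**
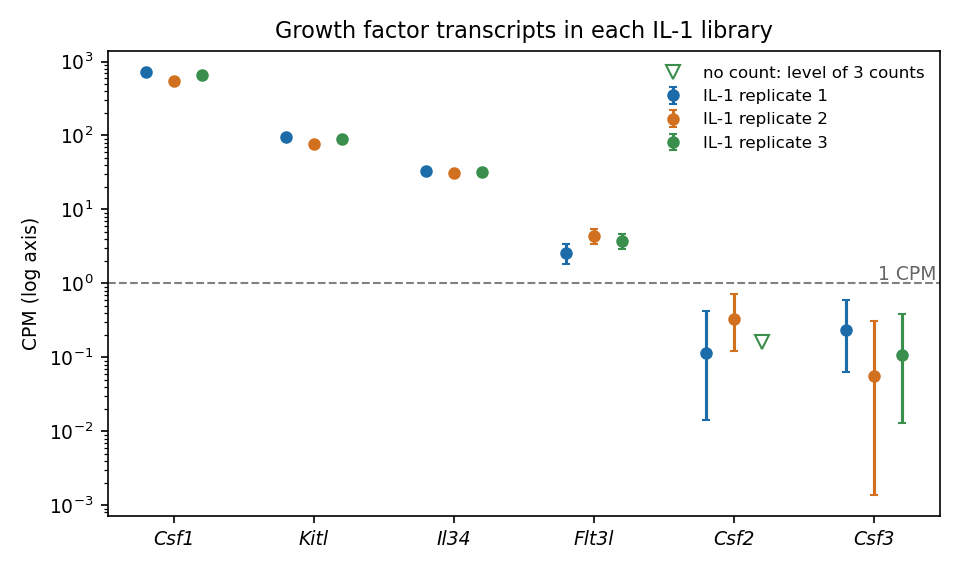
CPM of each growth factor gene (log axis) in IL-1 replicates 1, 2 and 3, with 95% exact Poisson intervals as bars, which are shorter than the symbols for abundant genes. Csf1 lies between 549 and 711 CPM, while all points of Csf2 and Csf3 lie under the dashed line at 1 CPM; the open triangle stands at the level of 3 counts for Csf2 in replicate 3, which had no count.

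Csf1 (Entrez 12977, chromosome 3, 107741048 to 107760469, minus strand, GRCm38) had 12274, 9933 and 12090 reads in replicates 1, 2 and 3, or 711, 549 and 651 CPM. Its mean was 637 ± 82.0 CPM (SD, n = 3). The counting intervals of the 3 libraries did not overlap, with replicate 2 at 538 to 560 CPM and replicate 3 at 639 to 662 CPM. The coefficient of variation between libraries was 12.9%, against 0.935% from counting alone, so the spread went beyond counting error. GENCODE lists complete coding forms of Csf1 from 163 to 552 residues, among them a short form of 257 residues. As background, alternative splicing of this gene is known to decide between a secreted and a cell-surface protein. Counts per gene add these forms up, and their shares were not analysed here.

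The Csf1 start region is shown because NF-κB is the factor that the reporter in these cells reads out, and Csf1 was the most abundant member. The window runs from 250 bases before to 50 after the RefSeq start site (GRCm38.p6, minus strand, chr3:107760420-107760719); the GENCODE start site is the same base. Capitals mark matches, on either strand, to the loose NF-κB-type pattern GGGNNNNNCC.
Csf1: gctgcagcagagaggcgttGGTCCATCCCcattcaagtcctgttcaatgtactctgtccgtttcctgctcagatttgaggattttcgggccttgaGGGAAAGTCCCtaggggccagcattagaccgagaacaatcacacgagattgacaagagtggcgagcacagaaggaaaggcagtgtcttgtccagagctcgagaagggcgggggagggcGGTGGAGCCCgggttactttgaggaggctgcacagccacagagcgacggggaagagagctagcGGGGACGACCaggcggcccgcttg
The window held 5 matches. The matches at -155 on the plus strand (GGGAAAGTCC) and -154 on the minus strand (GGGACTTTCC) overlap, with positions counted from 0 at the start site. The letters of the minus-strand match are those of the classical NF-κB site of the immunoglobulin κ enhancer. The pattern is common, since 50.8% of 32851 mouse promoter windows of the same length held it at least once, and a match shows no binding. The share of windows with as many as 5 matches was not computed.

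Il34 (Entrez 76527, chromosome 8, 110741829 to 110805949, minus strand), the other ligand of CSF1R, had 576, 558 and 593 reads, or 33.4, 30.8 and 31.9 CPM. It was the steadiest member, at 32.0 ± 1.27 CPM. Its coefficient of variation of 3.98% was no larger than the 4.17% that counting alone gives. Within each library Csf1 had 21.3, 17.8 and 20.4 reads for each read of Il34. Csf1 has the longer exons, with 5281 bases in merged exons against 1959, and per kb of exon the excess was 7.90-fold, 6.60-fold and 7.56-fold, or 7.36 ± 0.675. The level of Csf1 transcripts was thus above that of the other CSF1R ligand in all 3 libraries on both scales. Antisense transcripts Gm15894 and Gm15895 overlap 1.12% and 3.83% of the Il34 exon bases, and with the strand setting not given their reads cannot be told apart there.

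Kitl (Entrez 17311, chromosome 10, 100015615 to 100100416, plus strand) had 1637, 1399 and 1690 reads, or 94.9, 77.3 and 91.0 CPM, and 87.7 ± 9.21 CPM on average. Replicate 2 was lowest, as it was for Csf1, and its counting interval of 73.3 to 81.5 CPM did not reach those of the other libraries. The ratio of Csf1 to Kitl reads was 7.50, 7.10 and 7.15, and it varied less between libraries (7.25 ± 0.216) than either gene did. Csf1, Kitl and Il34 were each lowest in replicate 2. Of all detected gene IDs 41.9% were lowest there and 30.2% in replicate 1. With so few genes, the shared lowest library is not read as particular to these members.

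As background, KITL is known as a shed soluble factor and as a form that stays on the membrane, and these differ by an exon that holds the main cleavage site. In GENCODE a coding exon of 84 bases (chromosome 10, 100080857 to 100080940) is present in the form of 273 residues and skipped in that of 245 residues. The count tables do not separate them. The Kitl start region is printed for comparison with that of Csf1 (plus strand, chr10:100015571-100015870, GRCm38.p6 RefSeq), with NF-κB-type matches in capitals as before.
Kitl: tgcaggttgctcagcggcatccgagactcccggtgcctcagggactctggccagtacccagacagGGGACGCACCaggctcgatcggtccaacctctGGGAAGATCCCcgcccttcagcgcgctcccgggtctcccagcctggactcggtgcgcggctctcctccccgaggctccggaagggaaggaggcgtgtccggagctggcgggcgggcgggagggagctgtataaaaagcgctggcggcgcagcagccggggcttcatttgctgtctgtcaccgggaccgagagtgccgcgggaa
It held 3 such matches, of which that at -153 (GGGAAGATCC) and that at -152 on the opposite strand (GGGATCTTCC) overlap. Unlike the Csf1 window it held a TATA box, TATAAA at -25 on the plus strand, which 13.6% of all windows hold on either strand. Of the 6 genes, 4 had an entry in the RefSeq promoter table. For Csf2 the RefSeq start site lies 232 bases from that of GENCODE, so its window is not shown. The window of Flt3l, a member at a low level, is not printed either. The Csf2 and Flt3l windows each held 1 NF-κB-type match.

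Flt3l (Entrez 14256, chromosome 7, 45131183 to 45136490, minus strand) was detected at a low level, with 44, 78 and 69 reads, or 2.55, 4.31 and 3.71 CPM. The mean was 3.53 ± 0.896 CPM. It differed from the 3 members above in its order of libraries, being lowest in replicate 1 and highest in replicate 2. Counting alone gives a coefficient of variation of 12.5%, and 25.4% was observed. The intervals of replicates 1 (1.85 to 3.42 CPM) and 2 (3.41 to 5.38 CPM) overlapped only at their ends.

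The nearest gene in the direction of Flt3l transcription is Rpl13a, which encodes a ribosomal protein of the large subunit and lies 2.44 kb away. It had 485, 714 and 609 CPM, the same order of libraries as Flt3l. Of all detected gene IDs 30.2% were lowest in replicate 1, so a shared lowest library is not read as particular to this pair. Per kb of exon the level of Rpl13a was 285 ± 54.1, far above the 0.909 ± 0.231 of Flt3l. Aldh16a1, the nearest gene on the other side, had 16.3, 15.5 and 14.9 CPM. GENCODE also lists a gene, Gm45713, that shares 22.1% of the Flt3l exon bases on the same strand. Whether reads of these neighbours enter the Flt3l count was not tested.

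**Figure D2:**
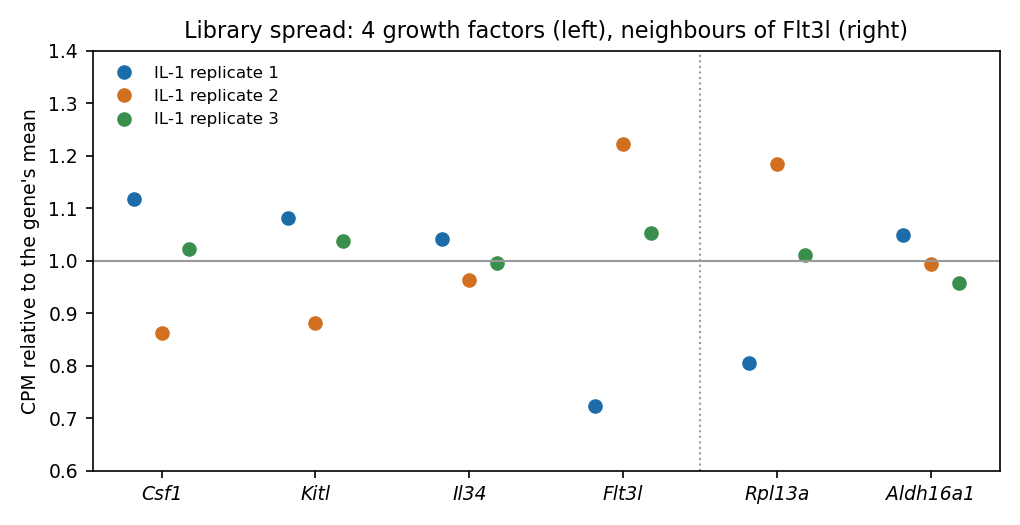
CPM of each gene in IL-1 replicates 1, 2 and 3 divided by its mean over the 3 libraries, for the 4 detected growth factors (left of the dotted line) and the adjacent neighbours of Flt3l (right). Csf1, Kitl and Il34 are lowest in replicate 2, whereas Flt3l ranges from 0.723 in replicate 1 to 1.22 in replicate 2 and Rpl13a from 0.805 to 1.18 in the same libraries.

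Csf2 (Entrez 12981, chromosome 11, 54247270 to 54249899, minus strand) had 2, 6 and 0 reads, and Csf3 (Entrez 12985, chromosome 11, 98700183 to 98703631, plus strand) had 4, 1 and 2. Pooled over the libraries this was 0.148 CPM for Csf2, with an interval of 0.0640 to 0.292, and 0.130 CPM for Csf3, with an interval of 0.0522 to 0.267. Neither gene reached 1 CPM in any library, and the data do not order them. Per kb of exon, Csf1 stood 649-fold above Csf2 (interval 330 to 1504) and 1311-fold above Csf3 (interval 636 to 3261) in the pooled reads. Single libraries decide these folds: with 6 of the 8 Csf2 reads in replicate 2, the first was 1845-fold without it and 421-fold without replicate 3, and the second ranged from 1086-fold to 1964-fold when 1 library was left out. The antisense gene Gm12223 overlaps 96 of the 800 Csf2 exon bases, so the few Csf2 reads may include its reads.

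Messenger RNAs of Csf2 and Csf3 are textbook cases of short-lived transcripts with AU-rich elements in the 3′ UTR, to which decay factors bind. The stretch of 30 bases with the most ATTTA pentamers is shown for both and for Csf1, whose level was high, from the GENCODE transcript with the longest 3′ UTR (transcript strand; pentamers in capitals).
Csf2: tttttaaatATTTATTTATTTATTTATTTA
Csf3: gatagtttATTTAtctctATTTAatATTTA
Csf1: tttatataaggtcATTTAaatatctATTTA
In Csf2, 5 overlapping pentamers ran into each other, and its 3′ UTR of 317 bases held 9 in all, or 28.4 per kb. Of 1890 mouse 3′ UTRs of similar length (at most 20% shorter or 25% longer), only 1 held as many, Csf2 itself. It also held the nonamer TTATTTATT at 4 positions, which 2.38% of those UTRs hold at least once. Csf3 had 6 pentamers in 669 bases, a number that 1.90% of UTRs of similar length reached, and no nonamer. Csf1 had 4 in 2111 bases, a number reached by 1509 of 3021 UTRs of similar length. Kitl had 14 in 4435 bases, reached by 206 of 1351, Il34 had 1 in 605 bases and Flt3l none in 424. The pentamers per kb were thus highest in the 2 members whose transcripts were not detected; with 6 genes this is a description, and decay was not measured.

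Levels of different genes can be compared only per length. In CPM per kb of merged exons, Csf1 was at 121 ± 15.5, Il34 at 16.4 ± 0.650, Kitl at 14.8 ± 1.56, Flt3l at 0.909 ± 0.231, Csf2 at 0.186 ± 0.210 and Csf3 at 0.0931 ± 0.0642. The ranges of the libraries overlapped between Il34 and Kitl and between Csf2 and Csf3, so on these ranges neither pair was separated. Within each library Il34 was above Kitl, with ratios of 1.06, 1.20 and 1.06 (1.11 ± 0.0827), a placing that rests on the exon lengths, since Kitl had more CPM. Csf2 and Csf3 changed places between libraries. The other 3 steps of the order were separated in all libraries. No test was run on the order, since a two-sided sign-flip test over 3 libraries cannot go below 0.25. Among detected genes with a known exon length, Csf1 was at or above 95.9%, Il34 70.6%, Kitl 68.5% and Flt3l 10.3% in CPM per kb. The level of Flt3l depends on the length used, with 3878 bases in merged exons but 2482 in its longest transcript. By the longest transcript it was at 1.42 CPM per kb, and its standing among detected genes was not recomputed.

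**Figure D3:**
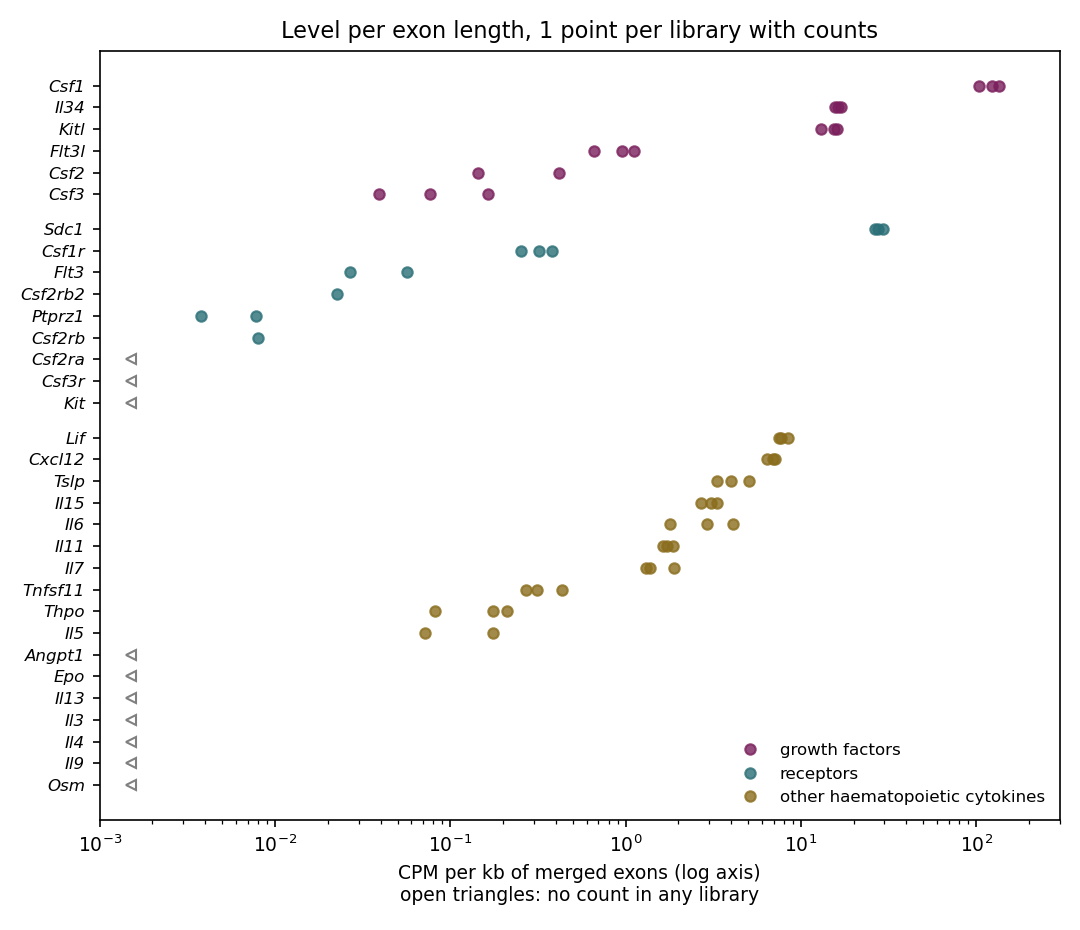
CPM per kb of merged exons (log axis) for the growth factors, the listed receptors and the other haematopoietic cytokines, with a point for each IL-1 library that had a count and an open triangle for genes with no count in any library. Csf1 stands highest of all genes shown, at 104 to 135, and Il34 and Kitl overlap.

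Of all reads of the 6 genes, 84.4%, 82.9% and 83.7% were of Csf1 in replicates 1, 2 and 3. Kitl took 11.5% ± 0.249, Il34 4.24% ± 0.368 and Flt3l 0.477% ± 0.174. Corrected for exon length, the share of Csf1 was 78.7% ± 1.24, that of Il34 rose above that of Kitl, at 10.8% ± 0.853 against 9.71% ± 0.181, and Flt3l took 0.610% ± 0.219. The shares of Csf1 and Kitl differed little between libraries, while that of Flt3l was 0.303%, 0.651% and 0.478% of the reads in replicates 1, 2 and 3, and the place of Il34 and Kitl depended on the length correction.

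**Figure D4:**
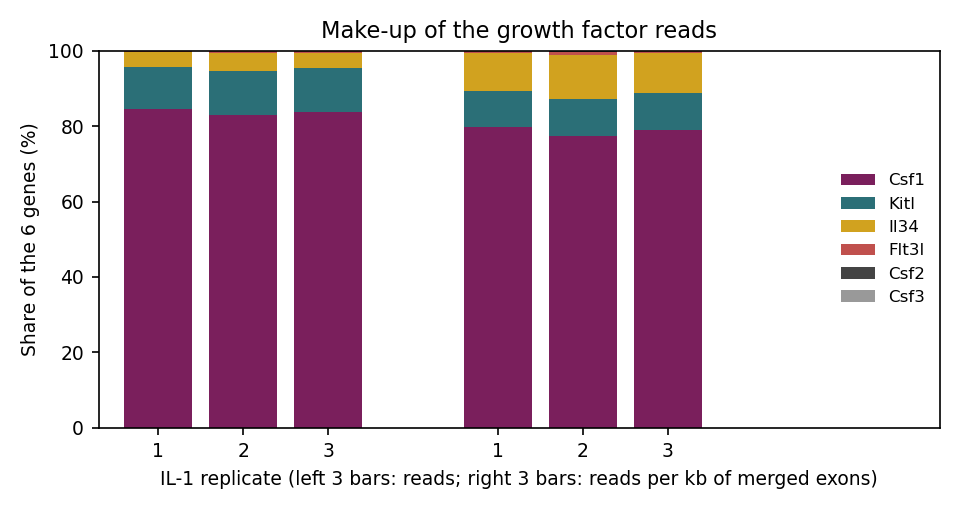
Share of each gene (%) among the reads of the 6 growth factor genes in IL-1 replicates 1, 2 and 3, as reads (left) and as reads per kb of merged exons (right). Csf1 takes 82.9% to 84.4% of the reads and 77.4% to 79.8% of the reads per kb; the slices of Csf2 and Csf3 are too thin to be seen.

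Of 9 listed receptor genes of these ligands, 2 were detected, beside 51.1% of all protein-coding genes. Csf1r, the receptor of CSF1 and IL-34, had 32, 40 and 27 reads, or 1.84 ± 0.379 CPM, and per kb of exon its level was 0.319 ± 0.0657. Per kb, Csf1 exceeded it 419-fold, 272-fold and 490-fold in replicates 1, 2 and 3, and Il34 exceeded it 53.1-fold, 41.1-fold and 64.7-fold. Of 11 macrophage markers, which could come with Csf1r, 5 were detected (Cd14, Lyz2, Cd74, Mertk and Cd68), and the summed level of all 11 was 56.3, 62.2 and 58.2 CPM. The highest of these was Cd14 at 31.1 CPM. The other 6 of the list were not detected, with 3, 0 and 6 reads of Ptprc, 4, 0 and 0 of Adgre1, 2, 0 and 0 of Itgam, none of Fcgr1, and Aif1 and Cx3cr1 at 0.112 and 0.0179 CPM. Their part in the Csf1r reads was not tested.

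Sdc1, which encodes syndecan-1, a proteoglycan that binds IL-34, was the highest entry of the receptor list per kb of exon, at 27.8 ± 1.39, and had 106 ± 5.30 CPM. Ptprz1, a receptor phosphatase that also binds IL-34, had 0, 2 and 1 reads. Kit, the receptor of KITL, had no read in any library, for which the limit of 3 counts gives 0.0556 CPM over the 3 together and the exact interval an upper end of 0.0684 CPM, and neither had Csf3r nor Csf2ra. Flt3 had 6, 3 and 0 reads, Csf2rb 1, 0 and 0, and Csf2rb2 0, 0 and 2; the last 2 are close paralogs whose reads may be split. Kitl and Flt3l thus passed the minimum of 1 CPM where Kit and Flt3 did not, and the Flt3l count carries the overlap given above.

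Of 17 other cytokines that act on blood cells, 7 were detected, beside 51.1% of protein-coding genes. The highest in CPM were Cxcl12 (55.7 ± 2.85 CPM), the chemokine that holds stem cells in the marrow, and Lif (34.3 ± 2.17 CPM), a cytokine of the IL-6 family. The lymphoid growth factor Il7 was at 8.65 ± 1.81 CPM, and Il6 spread widely, with 171, 79 and 131 reads. Tslp, Il15 and Il11 were the remaining detected genes, at 3.63 to 6.86 CPM. Il3, Il4, Il9, Il13, Osm, Epo and Angpt1 had no read. In CPM per kb of merged exons, Lif was highest of the list at 7.88 ± 0.499. That was below Csf1, Il34 and Kitl in each library and above Flt3l. The place of Lif above Cxcl12 rests on the length used. Cxcl12 had 8176 bases in merged exons but 5627 in its longest transcript, against 4350 and 4026 for Lif. The longest transcript was not used as length for this list.

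Genes that mark or make up the stromal niche of blood stem cells were detected for 11 of 13 entries, beside 51.1% of protein-coding genes, with the adhesion molecule Vcam1 at 219 ± 11.5 CPM per kb of exon, the mesenchymal transcription factor Prrx1 at 50.4 ± 2.32, Cxcl12 at 6.82 ± 0.349 and the PDGF receptor Pdgfrb at 8.58 ± 1.25 on the same scale. These 4 were the highest of the list in CPM; per kb the growth factor gene Ptn, named after its value was seen, stood above Pdgfrb and Cxcl12 at 13.6 ± 1.34. Lepr, the leptin receptor that marks the main Kitl- and Cxcl12-producing cells of adult marrow, had no read, and neither had Angpt1.

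CSF1, KITL and FLT3L are made as membrane proteins and can be cut loose by proteases. Of 11 genes of such shedding and its control, 10 were detected, and so were all 8 listed genes of proteins that bind AU-rich elements; the share of all protein-coding genes was 51.1%. The lists were chosen with these data known, and nothing is read from these counts. Mmp2 was at 318 ± 19.8 CPM, the metalloprotease inhibitor Timp3 at 244 ± 15.1 CPM, Adam9 at 175 ± 13.1 CPM and Rhbdf1, a partner of ADAM17, at 116 ± 5.99 CPM. Adam17, the protease best known for cutting cytokines and named here after its value was seen, was at 89.6 ± 4.28 CPM. Adam33 was under the minimum at 0.665 ± 0.130 CPM. Among the AU-rich element genes, the highest in CPM was the stabilizing factor Elavl1 (HuR) at 429 ± 11.3 CPM. Tia1 at 105 ± 1.48 CPM, Tial1 at 55.5 ± 5.96 CPM and Hnrnpd (AUF1) at 53.3 ± 3.79 CPM followed. Zfp36l1, Zfp36l2 and Zfp36, named after their values were seen, had 52.8 ± 8.38, 28.4 ± 2.07 and 4.29 ± 0.280 CPM. The order differed per kb of exon, where Elavl1 at 41.4 ± 1.09 was followed by Zfp36l1 at 17.7 ± 2.80. Tial1, Hnrnpd and Tia1 were lower on that scale, at 8.04, 7.25 and 6.66. The low place of Tia1 rests on its 15750 bases in merged exons, since its longest transcript has 4477. Zfp36l1 has 2990 bases on both measures. The longest transcript was not used as length for this list, so the place of Tia1 is not settled.

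The members were set beside their genomic neighbours, the 5 nearest protein-coding genes on each side. Of 60 such neighbours, 36 were detected. For Csf2 and Csf3, 7 of 10 and 6 of 10 neighbours were detected, near the 51.1% of all protein-coding genes and not read as particular to these loci. Next to Csf2 stood P4ha2, a subunit of collagen prolyl hydroxylase, at 13.9 ± 0.901 CPM per kb of exon, and Il3 at 0, so both genes of this cytokine pair, 15.2 kb apart, were below detection. Next to Csf3 stood the proteasome gene Psmd3 at 53.4 ± 4.92 CPM per kb of exon, 4.20 kb away, and the Mediator gene Med24 at 5.30 ± 0.760 CPM per kb of exon, 0.965 kb away; Csf3 itself was at 0.0931 ± 0.0642.

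Per kb of exon, Csf1 at 121 ± 15.5 was higher than each of its 10 neighbours, of which the highest, Gstm5, was at 90.1 ± 7.92. Of these neighbours 4 were detected, and next to Csf1 were Ahcyl1 at 27.1 ± 0.149 CPM per kb and Eps8l3 with no read. Kitl stood apart from other genes. Csl, 256 kb before it, was at 0.154 ± 0.0781 CPM per kb of exon, and Gm4301, 235 kb after it, had no read. The other neighbours on that side, Gm4302, Gm4303, Gm4305 and Gm4307, had 910 to 927 exon bases each and no read. With the multi-mapping setting not given, this need not mean absence if these genes share sequence. Of the 10 neighbours of Kitl, 4 were detected. Il34 lay between Mtss2 at 0.886 ± 0.0712 and the splicing factor gene Sf3b3 at 43.2 ± 4.35 CPM per kb of exon, with 8 of 10 neighbours detected. For Flt3l, 7 of 10 were, and the share of all protein-coding genes was 51.1%.

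**Figure D5:**
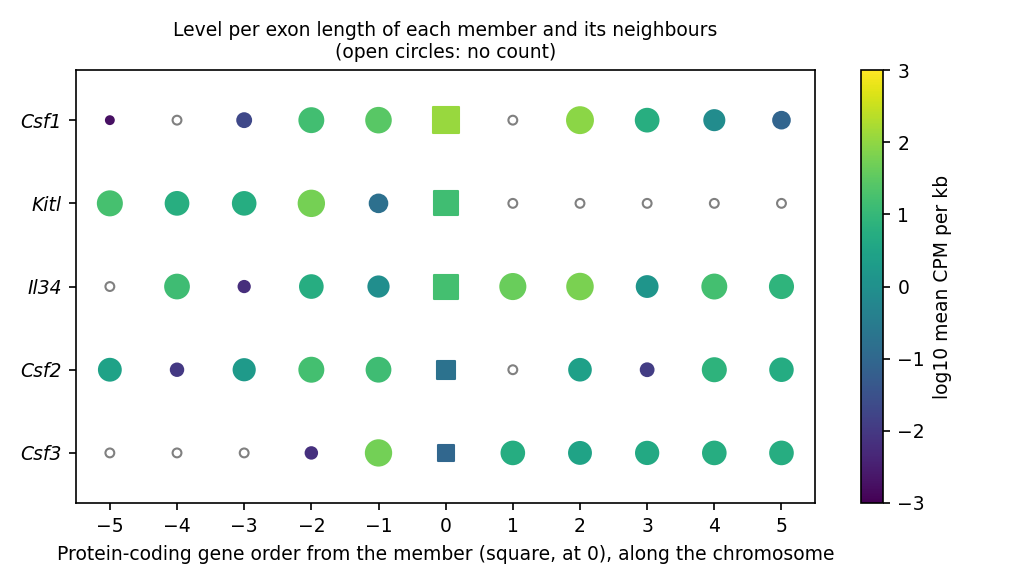
Mean CPM per kb of merged exons over the IL-1 libraries (colour, log10 scale; symbols grow with the level) of the growth factor genes other than Flt3l (squares) and of the 5 nearest protein-coding genes on either side in gene order (circles; open circles had no count). The squares of Csf2 (0.186) and Csf3 (0.0931) are darker than those of most neighbours, and Csf1 (121) is the highest of its row.

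The protein-coding genes nearest to Csf1 in log2(CPM + 0.5) over the 3 libraries were Ddb1 (697, 565 and 657 CPM), Canx (666, 575 and 621 CPM) and Fkbp4 (666, 585 and 598 CPM), at distances of 0.0523, 0.134 and 0.179. With 3 libraries this likeness is mostly one of level.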

How the data were processed

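PolyA RNA was reverse transcribed from cell lysate without extraction, pre-amplified for 10 cycles and tagmented, per the labels' protocols; no molecular identifiers are mentioned, so counts are reads. The deposited tables hold raw counts per Entrez gene ID, made by the authors with CASAVA, STAR and featureCounts on mm10, per the submitters' processing notes; not given in the sources used here are versions, annotation, strand and multi-mapping settings. The 9 tables equal to that of IL-1 replicate 3 were left out, so no groups were compared.

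CPM were computed from library totals (Python 3.11.15, pandas 2.3.3, scipy 1.17.1). Symbols and positions came from RefSeq GRCm38.p6, the assembly behind mm10 (25275 of 27179 IDs matched), and merged exon lengths from GENCODE M21, known for 98.3% of detected IDs, matched by symbol or a single older symbol. Scaling factors and the common dispersion came from edgeR 4.0.16 (R 4.3.3). Only the estimate of the common dispersion was tested on simulated data. The members and lists were chosen with earlier results of these data known. Named were all members and receptors, the 4 highest by CPM and the uncounted genes of each other list, the adjacent neighbours and the 3 genes nearest to Csf1; others were chosen after their values were seen. No per-sample column was left unassigned. Alternatives were other scaling, other minima, other lengths and leaving out each library.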

Additional observations from a re-analysis of the deposited data

How the results depend on the processing

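No paired analysis was possible because no groups were compared. Of 86 recomputed values, 80 stayed within 1 SD of the main value or, for counts, within 1.5 times it, or, for the pooled folds of Csf1 over Csf2 and Csf3 (added after seeing the data), within their intervals. For Csf2 an SD as large as the mean makes this a loose bound: without replicate 2 its mean was 0.0580 CPM in place of 0.149. Without replicate 1 Csf3 was at 0.0815 CPM in place of 0.132. The fold of Csf1 over Csf2 was 1845 without replicate 2 in place of 649, which lies outside its interval and was counted as moved. By arithmetic, dropping a library from a set of 3 always shifts the mean by less than 1 SD. The means so obtained, which are among the 80, were bound to count as unmoved and do not test the main values. Numbers of detected genes can only stay or rise when a library is left out, since detection asks for 1 CPM in every library. They are thus a weak check as well. A total without the 10 rows with the most counts gave 34.8 CPM for Il34, which the smaller total explains. A minimum of 2 CPM left 1 receptor, Sdc1, in place of 2. Without length correction Kitl came before Il34 and 4 of the 5 steps in the order were separated, in place of 3; with the longest transcript as length the order was unchanged and Il34 and Kitl no longer overlapped. Leaving out a library gave 3 to 4 separated steps, and without replicate 2, Csf3 came before Csf2. Per kb, the share of Csf1 was 78.7% in place of 83.7%. Depth limits what can be said of Csf2, Csf3 and most receptors.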
